A study of Homo sapiens with 6 samples.

Results

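The HOXB cluster on chromosome 17 holds 10 protein-coding HOX genes, HOXB1 to HOXB9 and HOXB13, and each was examined on its own in 4 peak lists of 2 histone marks. A gene was given every peak that overlapped its annotated record or lay within 1 kb of its start by at least 1 bp. All 10 lie on the minus strand and had a record in both annotations used, among 20162 protein-coding genes for H3K27Ac and 19719 for H3K4me3. In the control lists, H3K27Ac ran almost without a break from HOXB2 to HOXB6, continued in shorter peaks over HOXB7, HOXB8 and HOXB9, and was sparse from there to HOXB13. In the lists of cells that received the NPM1 guide RNA, short and weak peaks were left at some of these genes and none at others.

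OCI-AML3 is an established human acute myeloid leukemia (AML) cell line that carries a mutant NPM1 allele (mtNPM1) beside a normal one, and per the study also mutations of DNMT3A and NRAS, so all groups share these alleles. Cells grown with 20% serum, in alpha-MEM per the labels and in another medium per the study's methods, received, by transfection, either the control guide (sgNeg) or the guide directed against mtNPM1 (sgNpm1A), and were harvested at 3 days (72 hours) per the labels, whereas the methods of the study give a longer time for this assay. Crosslinked chromatin was precipitated with an antibody against acetylated lysine 27 of histone H3 (H3K27Ac, found at active enhancers and promoters) or trimethylated lysine 4 (H3K4me3, found at active promoters), and sequencing adapters were attached with Tn5 transposase. The series has 6 samples in 6 groups of 1 library each, that is 2 guides by H3K27Ac, H3K4me3 and input, and inputs (2 samples) were not used here. With 1 library per group no difference between guides has a replicate check, so values are given side by side without a test.

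HOX genes encode homeodomain transcription factors that set position along the body axis of the embryo. They lie in clusters in mammals, and within a cluster the order of the genes on the chromosome follows the order in which they are switched on and the position at which they act, from the HOXB1 end (anterior, early) to the HOXB13 end (posterior, late). In blood, HOX genes are active in stem and progenitor cells and are turned down as cells mature. Leukemias with mutant NPM1 are known for sustained expression of HOXA and HOXB genes together with the cofactor MEIS1.

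Sequences from the cluster are shown first, because the window at a start can be set directly against the peaks. RefSeq (GRCh38.p14) gave a promoter of 300 bases, from 250 before to 50 after the start, for 1 of the 10 genes, HOXB1, and for the antisense noncoding genes of the cluster. HOXB1 is shown as the only coding start, HOXB-AS1, HOXB-AS2 and HOXB-AS3 because their starts lie inside the widest H3K27Ac peak of the cluster, and capitals mark each CG dinucleotide.
HOXB1, chr17:48530962-48531261, minus strand: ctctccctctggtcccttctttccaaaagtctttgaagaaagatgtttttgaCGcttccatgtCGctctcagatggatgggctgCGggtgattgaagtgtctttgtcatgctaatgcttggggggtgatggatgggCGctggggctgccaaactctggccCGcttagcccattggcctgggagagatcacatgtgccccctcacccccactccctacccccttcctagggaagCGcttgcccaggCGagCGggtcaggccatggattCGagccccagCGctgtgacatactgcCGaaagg
HOXB-AS1, chr17:48544101-48544400, plus strand: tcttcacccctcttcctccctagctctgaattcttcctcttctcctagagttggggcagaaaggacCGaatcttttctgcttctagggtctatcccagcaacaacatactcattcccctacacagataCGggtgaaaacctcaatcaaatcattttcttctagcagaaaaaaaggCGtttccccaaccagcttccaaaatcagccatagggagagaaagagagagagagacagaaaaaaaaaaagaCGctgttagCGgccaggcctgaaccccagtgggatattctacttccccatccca
HOXB-AS2, chr17:48555907-48556206, plus strand: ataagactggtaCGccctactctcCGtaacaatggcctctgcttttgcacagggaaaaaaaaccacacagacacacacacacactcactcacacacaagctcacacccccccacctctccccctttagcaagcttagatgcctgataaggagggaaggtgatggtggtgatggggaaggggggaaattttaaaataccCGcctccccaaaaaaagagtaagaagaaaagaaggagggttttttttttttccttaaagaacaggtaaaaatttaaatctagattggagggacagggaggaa
HOXB-AS3, chr17:48595708-48596007, plus strand: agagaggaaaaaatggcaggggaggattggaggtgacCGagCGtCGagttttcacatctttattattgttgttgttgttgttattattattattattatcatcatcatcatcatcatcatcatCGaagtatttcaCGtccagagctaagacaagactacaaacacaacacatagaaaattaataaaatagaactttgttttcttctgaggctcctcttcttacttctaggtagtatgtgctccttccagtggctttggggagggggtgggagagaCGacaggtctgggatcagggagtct

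The HOXB1 promoter held 11 CG dinucleotides, and the antisense promoters held 5 at HOXB-AS1, 3 at HOXB-AS2 and 6 at HOXB-AS3, all under the median of 14 over 35116 RefSeq promoters of this length. The 4 windows were thus all below the middle of the promoters in CG number. Each was found once on chromosome 17 of GRCh37 by exact match, which allowed both marks to be read over the same bases. All 300 bases of HOXB-AS1, HOXB-AS2 and HOXB-AS3 lay under the same sgNeg H3K27Ac peak, and 0 bases under an sgNpm1A H3K27Ac peak. For H3K4me3 the 3 differed: HOXB-AS1 lay wholly under an sgNeg peak of 4.58-fold enrichment, HOXB-AS2 was 7089 bp from the nearest sgNeg peak, and HOXB-AS3 sat in a break between peaks that ended 8 bp before it and began 12 bp after it. The HOXB1 window had 0 bases under a peak in any of the 4 lists, since its peaks lay within the gene or upstream of this window. On the HOXB1 promoter, a copy of TGATNNAT, the composite motif bound by PBX and HOX proteins together, started at base 126 of the printed strand with the letters TGATGGAT, and 7.40% of all 35116 promoters held this motif on either strand. HOXB1 is known as a gene that regulates itself with PBX cofactors, and a match here is only a description of the letters.

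The cluster also encodes microRNAs, which bind target messengers mainly through the seed at bases 2 to 8, in capitals below. They are shown because they lie on either side of the end of the H3K27Ac domain, miR-10a between HOXB4 and HOXB5 and miR-196a-1 between HOXB9 and HOXB13.
hsa-miR-10a-5p: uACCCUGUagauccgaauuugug
hsa-miR-196a-5p: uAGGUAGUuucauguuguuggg

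The 2 seeds differ, and their genes differed in sgNeg in H3K27Ac cover, while neither lay under H3K4me3. The MIR10A hairpin lay with all 110 bases under the widest sgNeg H3K27Ac peak, while the MIR196A1 hairpin had no H3K27Ac peak over it, with the nearest 1128 bp away in sgNeg. The nearest sgNeg H3K4me3 peak was 564 bp from the MIR10A hairpin and 563 bp from the MIR196A1 hairpin. In sgNpm1A neither hairpin lay under a peak of either mark.

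ChIP fragments carry no strand, so a peak over a HOXB gene and an antisense gene cannot be assigned to either. The lists differ in ways that bear on every value below. They hold 327715 (sgNeg) and 317059 (sgNpm1A) H3K27Ac peaks and 353628 and 106641 H3K4me3 peaks, and their sequencing depth is unknown, since a peak list gives no read total. The fold value above which 1% of peaks lie was 5.75 in sgNeg and 4.39 in sgNpm1A for H3K27Ac, and 8.53 and 6.10 for H3K4me3, so peaks were ranked within their own list and genes were compared by that rank, given as a percentile (100 is the strongest peak and 0 stands for no peak). All labels name OCI-AML3, yet the deposited H3K27Ac and H3K4me3 lists carry different tags of unstated meaning, and they use different genome builds, GRCh37 for H3K27Ac and GRCh38 for H3K4me3. NPM1, the gene the guide targets, had H3K27Ac peaks up to the 99.99 percentile in sgNeg and the 94.2 percentile in sgNpm1A, and an H3K4me3 peak at the 99.8 percentile in sgNeg and none in sgNpm1A, which does not measure editing. The sgNpm1A H3K27Ac peak was 214 bp wide and 3838 bp from the NPM1 start, which lay under a peak in sgNeg. H3K27Ac peaks covered 18.9% of the NPM1 window in sgNeg and 0.833% in sgNpm1A. Of 6 myeloid markers, all 6 had an sgNeg H3K27Ac peak and 5 an sgNeg H3K4me3 peak, against 5 and 1 in sgNpm1A. Lymphoid markers had sgNeg peaks of both marks at 4 of 4, erythroid markers at 2 and 1 of 3, and epithelial markers at 2 and 3 of 3, so a peak anywhere in a gene did not separate cell types in these lists. In sgNpm1A the H3K27Ac and H3K4me3 counts were 4 and 1 for lymphoid, 2 and 0 for erythroid, and 2 and 3 for epithelial markers.

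**Figure D1:**
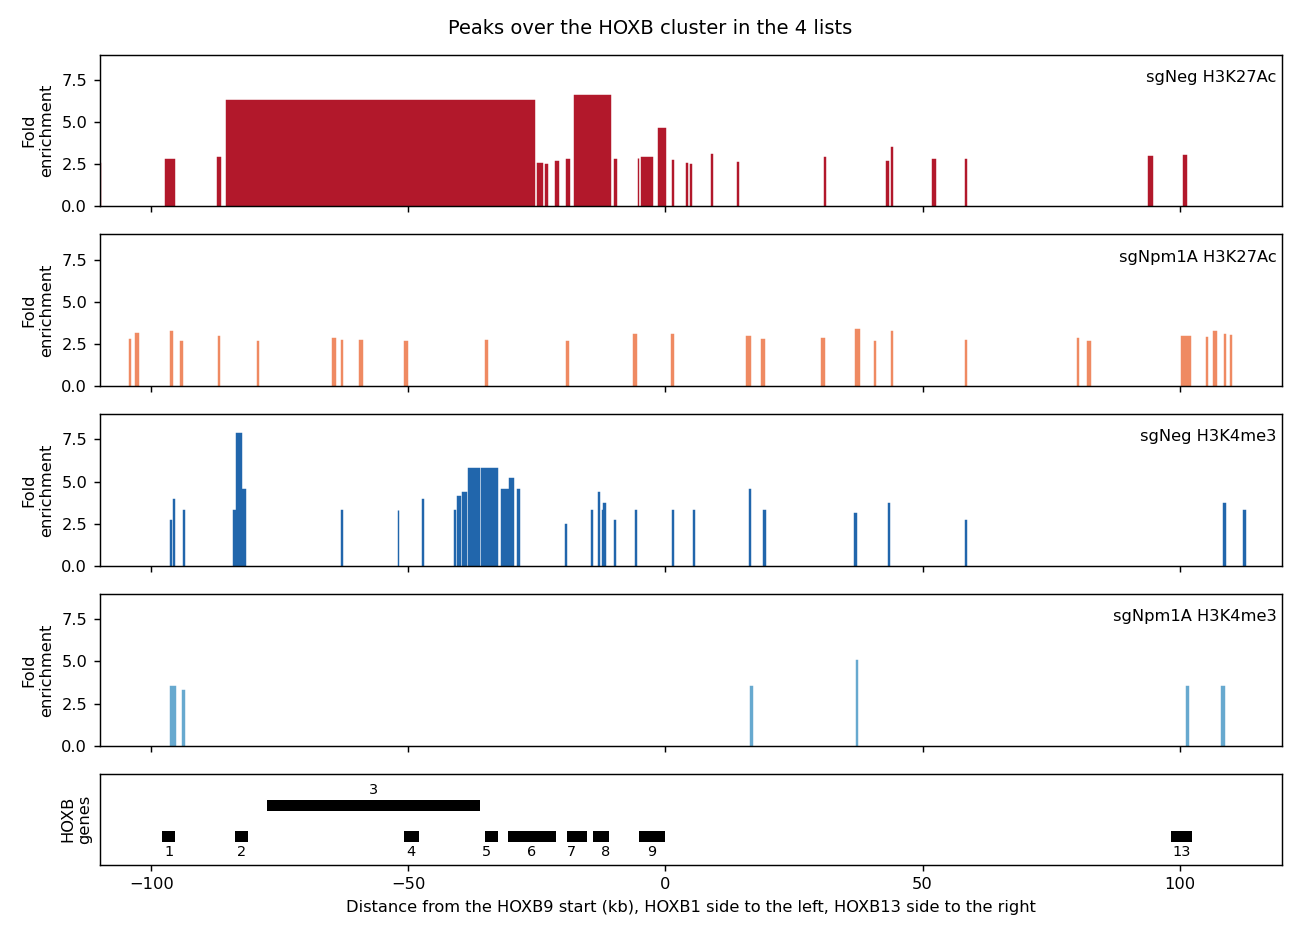
Peaks of the 4 lists over the HOXB cluster, each bar spanning a peak from its first to its last base on the x axis (kb from the HOXB9 start) with its fold enrichment as height on a linear axis, and RefSeq gene records below. The sgNeg H3K27Ac list has 1 peak of 59874 bp over HOXB2 to HOXB6, and from HOXB1 to HOXB9 the sgNpm1A H3K27Ac peaks reach at most 702 bp.

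In sgNeg, all 10 genes had an H3K27Ac peak, where 88.5% of all protein-coding genes did. Since a long gene catches a peak more easily, the 8 HOXB genes whose record spans at most 10 kb were also set against other genes of that size, and all 8 had a peak where 71.8% of such genes did. Having any peak was therefore common, and the HOXB genes are described by the width and height of theirs. For 7 of 10 genes the highest peak was in the top 1% by fold enrichment, against 17.1% of all genes, and for 7 of 10 a peak was in the top 1% by width, against 11.6%. This was not particular to HOXB: in the HOXA cluster 5 of 11 genes had a top 1% peak by fold enrichment and 7 of 11 by width, with a peak of 51584 bp at HOXA7 to HOXA13, rank 3 by width, whose fold of 13.1 exceeded that of any HOXB peak.

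A single peak covered the anterior and central part of the cluster. It ran from 46618333 to 46678206 on chromosome 17 (GRCh37), a width of 59874 bp that ranked 2 among the 327715 peaks of the list, where the widest spans 60166 bp. Its mean fold enrichment was 6.32, at rank 2144 and percentile 99.3, with a q-value of 1.19e-11. HOXB2, HOXB3, HOXB4, HOXB5 and HOXB6 all overlapped this 1 peak, so their equal percentiles are 1 measurement and not 5.

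HOXB2, a factor of hindbrain patterning that acts downstream of HOXB1, had 98.5% of its window under this peak, its start included. HOXB4, whose overexpression expands blood stem cells, had 100% of its window covered, and so did HOXB5, known as a marker of long-term blood stem cells in mice. HOXB3, which overlaps HOXB4 on the chromosome and acts with it in blood progenitors, had 94.7% of its 57043-bp window covered. HOXB6, linked to growth of myeloid progenitors, had 69.8% of its window covered by all its peaks together. The wide peak stopped inside it, 4148 bp short of the start of the record, which lay under a separate peak of 532 bp at the 37.3 percentile. The wide peak thus covered the 3′ part of HOXB6 and not its start, and by the long record used it also stopped 4068 bp short of the HOXB3 start. By the MANE Select transcript, the reference transcript shared by RefSeq and Ensembl, the HOXB3 start lay under the wide peak, with 100% of that window covered.

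HOXB7 and HOXB8 shared the next peak, from 46685889 to 46692960. It was 7072 bp wide, rank 1835 by width, and had a fold enrichment of 6.59, rank 1740 and percentile 99.5, which was the highest of the cluster. HOXB8, which blocks maturation of myeloid progenitors when overexpressed, had its start under this peak and 85.9% of its window covered. HOXB7, a factor studied in several tumors, had 44.3% of its window covered, but its GENCODE record spans 26341 bp and runs on over HOXB8 and HOXB9. Measured over the MANE Select transcript, HOXB7 had 79.9% covered.

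HOXB9, which patterns the thoracic skeleton and acts in the mammary gland, had 2 peaks in sgNeg. The higher, from 46702289 to 46703713, was 1425 bp wide with a fold enrichment of 4.64, rank 7476 and percentile 97.7, and ended 7 bp from the HOXB9 start inside the gene. A wider peak of 2274 bp with a fold of 2.95 lay in the gene body, and together they covered 59.6% of the window. The HOXB9 peaks were thus narrower than the highest peaks at HOXB2 to HOXB8.

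The genes at the ends of the cluster carried less. HOXB1, which gives identity to a single segment of the hindbrain, had 1 peak in sgNeg, from 46606411 to 46608151, of 1741 bp with a fold of 2.84 at the 57.9 percentile. HOXB13, expressed in the prostate and hindgut, had 1 peak in sgNeg, from 46804461 to 46804914, of 454 bp with a fold of 3.03 at the 76.9 percentile. It lay within the gene, 1198 bp from its start, and covered 9.10% of the window. HOXB1 and HOXB13 were the only members whose highest sgNeg H3K27Ac peak ranked below that of HOXB9.

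In sgNpm1A, 6 of 10 genes had an H3K27Ac peak, against 82.5% of all genes, and 4 of the 8 with a short record, against 62.3% of short genes. No HOXB gene had a peak in the top 1% by fold enrichment (5.94% of all genes) or in the top 1% by width (7.06%). HOXB2, HOXB6, HOXB8 and HOXB9 had no peak at all. The count of 6 fell to 2 when peaks needed a q-value under 0.01, and was 10 when the window reached 5 kb from the start. The peaks that were left lay away from the starts of these genes by the records used, except at HOXB1 and HOXB13. By the MANE Select transcript HOXB3 also had a peak 943 bp from its start.

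HOXB3 had 5 peaks in sgNpm1A, of which the highest was 535 bp wide with a fold of 2.86 at the 37.9 percentile, and 3.81% of its window was covered. HOXB4 had 1 peak, from 46652808 to 46653420, of 613 bp with a fold of 2.69 at the 10.2 percentile, 2292 bp from its start. HOXB5 had 1 of 451 bp with a fold of 2.74 at the 18.1 percentile, 2145 bp from its start. Each of the last 2 lay at the 3′ end of its gene and is also counted for HOXB3, whose record overlaps both.

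HOXB7 had a peak at the 67.1 percentile with a fold of 3.08 by its long record, but that peak lies between HOXB8 and HOXB9. Over the MANE Select transcript its only peak was 464 bp wide with a fold of 2.67 at the 7.24 percentile, close to the weakest peaks of the list. HOXB7 is therefore the gene, of the 10, whose value depends most on the annotation. HOXB1 had peaks of 340 and 460 bp, the higher with a fold of 3.25 at the 80.8 percentile, and 13.5% of its window covered against 49.9% in sgNeg. HOXB13 had 1 peak of 1655 bp, from 46804043 to 46805697, with a fold of 2.98 at the 55.4 percentile, 33.2% of its window covered and an edge 415 bp from its start. At HOXB13 the sgNpm1A peak was thus wider than the sgNeg peak and lower in rank.

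**Figure D2:**
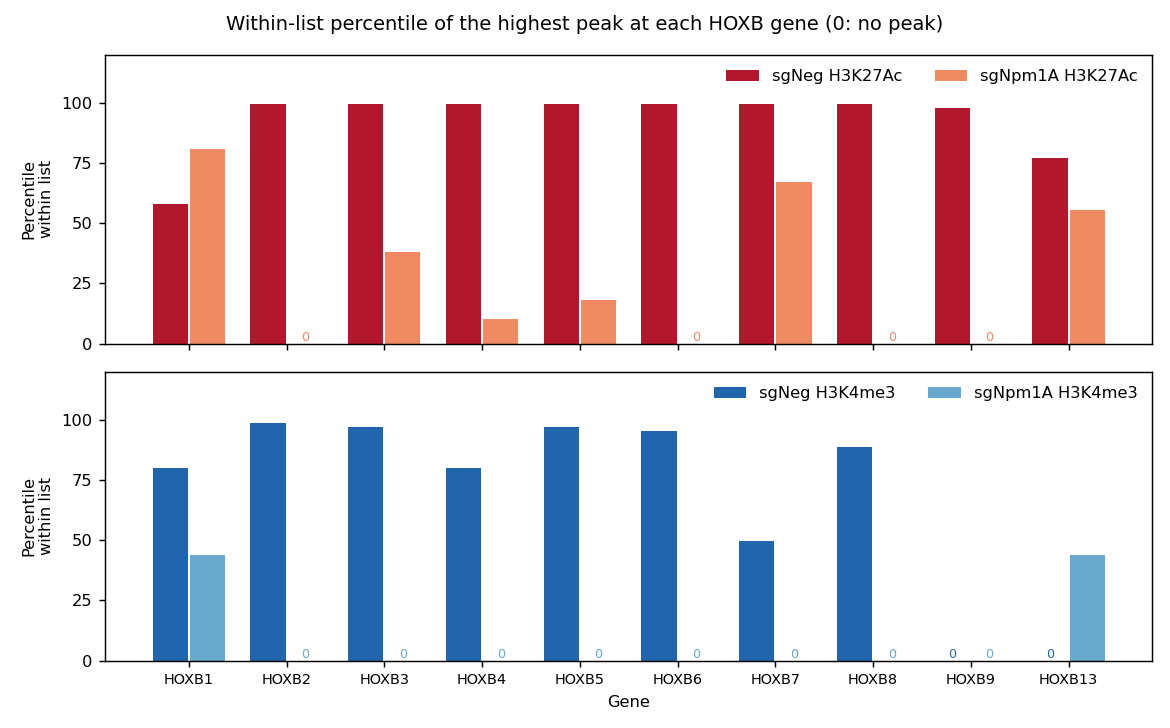
Within-list percentile of the highest peak at each of the 10 HOXB genes (y axis, 0 to 100, with 0 printed where there was no peak), H3K27Ac above and H3K4me3 below, 1 bar per library and no replicates. HOXB2 to HOXB8 stand above 99 for H3K27Ac in sgNeg, and for H3K4me3 in sgNpm1A bars are present for HOXB1 and HOXB13 alone.

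Set side by side, the H3K27Ac percentile was lower in sgNpm1A at 9 of 10 genes and higher at HOXB1, where 61.6% of all genes were lower. The directions at HOXB1 and HOXB13 turned when peaks were ranked by width instead, to -38.6 and 34.9 percentile points (sgNpm1A minus sgNeg). The median difference was -85.2 percentile points over the HOXB genes and -4.15 over all genes. A peak in sgNeg and none in sgNpm1A was found at 4 of 10, against 8.83% of all genes. Genes that, like HOXB2 to HOXB8, had a top 1% peak in sgNeg could hardly rank higher in sgNpm1A, so for these the level in sgNpm1A is given. Over the 3454 genes of this class the median sgNpm1A percentile was 85.8 and 10.4% had no peak, and over its 7 HOXB genes the median was 10.2. Over the 506 of them with a record of at most 10 kb the median was 36.1 and 35.4% had no peak, and of the 5 HOXB genes among these, HOXB2, HOXB6 and HOXB8 had none, for a median of 0. The HOXB genes thus ended lower than the middle of their class, but the 7 share 2 sgNeg peaks and are not 7 separate measurements. The part of the weaker upper end of the sgNpm1A list in these values was not tested.

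H3K4me3 in sgNeg marked 8 of 10 genes, where 85.7% of all genes had a peak, and 7 of the 9 with a RefSeq record of at most 10 kb, where 68.8% did. None had a peak in the top 1% by fold enrichment (17.3% of all genes) and 2 of 10, HOXB3 and HOXB5, had one in the top 1% by width (13.8%). HOXB9 and HOXB13 had none. The median percentile was 84.4 over the members and 94.4 over all genes, and with short records 80.0 over the members and 72.7 over all genes. For H3K27Ac the median was 99.3 over the members and 95.5 over all genes, and with short records 99.3 and 77.4. By these medians the distance from other short genes was larger for H3K27Ac than for H3K4me3. However, the short members were 8 for H3K27Ac and 9 for H3K4me3. The H3K27Ac median is also the value of the wide peak shared by HOXB2, HOXB4, HOXB5 and HOXB6, not of separate measurements.

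HOXB2 had the highest H3K4me3 peak of the cluster, from 48542862 to 48543780 (GRCh38), of 919 bp with a fold of 7.90 at rank 4460 of 353628 and percentile 98.7, and a q-value of 2.50e-21. The summit held 37 fragments (exact Poisson 95% interval 26.1 to 51.0, counting error only) over a background of 3.81. It lay in the gene, 1329 bp from the start, with a peak of 590 bp nearer to the start at 594 bp. At the other members no summit held more than 27 fragments.

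HOXB3 and HOXB5 shared a peak from 48590549 to 48593666, of 3118 bp, rank 115 by width, with a fold of 5.82 at the 96.8 percentile. It began 308 bp upstream of the HOXB3 start and ended 113 bp inside the HOXB5 start, so it covered most of the space between the genes and nearly all of the HOXB5 record. The HOXB3 start here is that of the shorter RefSeq record, where the MANE Select start also lies, and not that of the long record used for H3K27Ac. With the next peak, of 1365 bp, 81.0% of the HOXB5 window was covered. A peak of 2245 bp with the same fold lay 79 bp inside the HOXB3 start. Together with 6 further peaks they formed a block from 48585152 to 48597792, 12641 bp of 8 peaks with breaks of at most 1000 bp, which reached from the 5′ end of HOXB3 into the 3′ part of HOXB6. The longest H3K4me3 block of the cluster thus centred on HOXB5.

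HOXB6 had its highest peak in that block, of 751 bp with a fold of 5.20 at the 95.2 percentile, but the nearest edge of any of its peaks was 7194 bp from the start of its record. HOXB8 had 3 short peaks, the highest of 288 bp with a fold of 4.37 at the 88.8 percentile. HOXB4 had 1 peak of 300 bp upstream of its start and HOXB1 had its highest of 302 bp, both with a fold of 3.95 at the 80.0 percentile. HOXB7 had the weakest, 157 bp with a fold of 3.33 at the 49.6 percentile, 933 bp upstream of its start. HOXB9 had no peak under the rule, and the nearest lay 1199 bp upstream of its start, from 48627557 to 48627874, just outside the 1-kb window. HOXB9 is therefore a gene with a high-ranking H3K27Ac peak ending at its start and no H3K4me3 peak in its window, although the marks come from separate libraries whose lists carry different tags.

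In sgNpm1A, 2 of 10 genes had an H3K4me3 peak, against 50.8% of all genes, and 2 of the 9 with a short record, against 27.4% of short genes. Of these 2, HOXB1 also had peaks in sgNeg and HOXB13 had none there. No member had a peak in the top 1% by fold enrichment (2.11% of all genes) or width (1.83%). HOXB1 had 1 peak from 48530019 to 48530961, of 943 bp with a fold of 3.56 at the 43.9 percentile, ending 50 bp inside its start. HOXB13 had 1 from 48727653 to 48727985, of 333 bp with the same fold and percentile, 765 bp inside its start. Both summits held 13 fragments, near the 10 of the weakest peak in that list. The 2 genes with an H3K4me3 peak in sgNpm1A were thus the outermost of the cluster.

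The H3K4me3 percentile was lower in sgNpm1A at 8 of 10 genes (HOXB1 turned to 15.2 points higher by width), higher at HOXB13, and 0 in both lists at HOXB9, while 77.2% of all genes were lower. The median difference was -84.4 points over the members and -34.4 over all genes. A peak in sgNeg alone was found at 7 of 10, against 35.6% of all genes. Over all genes with a RefSeq record of at most 10 kb, the median percentile was 72.7 in sgNeg and 0 in sgNpm1A. Over the 9 members of that size it was 80.0 and 0. The share with a peak was 68.8% and 27.4% of short genes, beside 7 and 2 of these 9 members. No median difference is given for short genes. The sgNpm1A H3K4me3 list holds 106641 peaks against 353628, its background is 2.93 fragments against 3.81, and the part of this difference between the lists in the result was not tested.

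**Figure D3:**
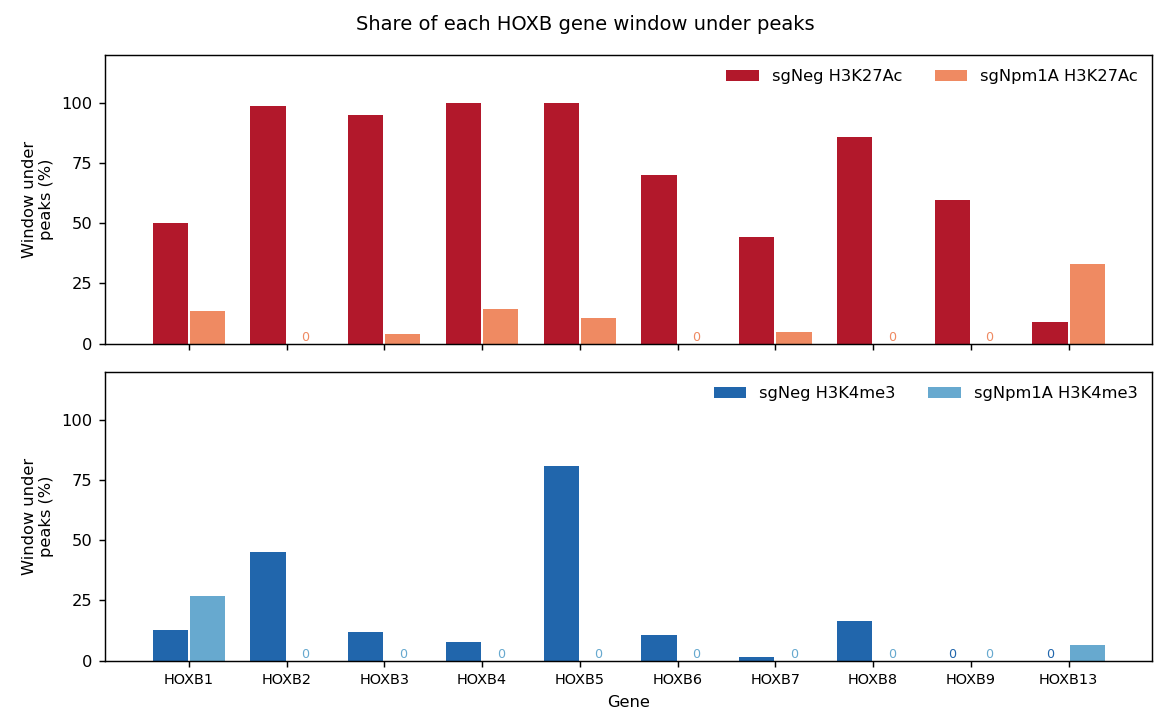
Percent of each gene window (gene record plus 1 kb on either side of its start) under peaks, H3K27Ac above and H3K4me3 below, 1 bar per library and no replicates. HOXB4 and HOXB5 reach 100% for H3K27Ac in sgNeg, while HOXB13 is at 9.10% in sgNeg and 33.2% in sgNpm1A.

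Over the whole stretch from HOXB1 to HOXB9, H3K27Ac peaks covered 77.9% of 97833 bp in sgNeg and 4.64% in sgNpm1A. The number of peaks was alike, 12 and 11, but the widest and the highest peaks differed. The widest spanned 59874 bp in the sgNeg list, against 702 bp for the sgNpm1A list. The highest had a fold of 6.59 (99.5 percentile) with sgNeg and of 3.25 (80.8 percentile) with sgNpm1A. Of the sgNeg peaks 3 were in the top 10% of their list by fold enrichment, and of the sgNpm1A peaks 0. H3K4me3 peaks covered 14.0% in sgNeg, in 24 peaks, and 1.26% in sgNpm1A, in 2. On chromosome 17 as a whole the covered share was 14.9% and 11.5% for H3K27Ac and 6.38% and 3.45% for H3K4me3. HOXB1 to HOXB9 thus lay above the share of its chromosome in both sgNeg lists and below it in both sgNpm1A lists.

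The end of the marked domain toward HOXB13 could be traced in the sgNeg H3K27Ac list. Peaks that overlapped HOXB9 were followed upstream of the gene, joining the next peak where the break was at most 3 kb. The chain ended at 46708724, 5004 bp past the HOXB9 start and 93400 bp short of the HOXB13 record, and the next peak followed after 3826 bp. With breaks of at most 1 kb it ended 7 bp inside HOXB9. The links past the start of HOXB9 were peaks of 189, 115 and 141 bp with folds of 2.73, 2.58 and 2.54, so the last wide or high peak of the domain ended at HOXB9 itself. The other 3 lists had no peak on HOXB9 and therefore gave no end by this rule.

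Between HOXB9 and HOXB13, 98404 bp that hold PRAC1 and PRAC2, small genes expressed in the prostate and hindgut, sgNeg H3K27Ac peaks covered 3.53%. This was close to the 4.68% in sgNpm1A, in 11 and 10 peaks, and both were below the share of the chromosome. H3K4me3 peaks covered 1.69% in sgNeg and 0.720% in sgNpm1A. The longest stretch without a peak was 35326 bp and 21615 bp for H3K27Ac, and 40008 bp and 61084 bp for H3K4me3, in sgNeg and sgNpm1A. PRAC1 and PRAC2 had no peak in any list. In 10-kb bins the sgNeg H3K27Ac cover was 42.5% in the bin that ends at the HOXB9 start and 5.96% in the next, and it did not pass 9.42% in the bins from there to 110 kb past the start.

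**Figure D4:**
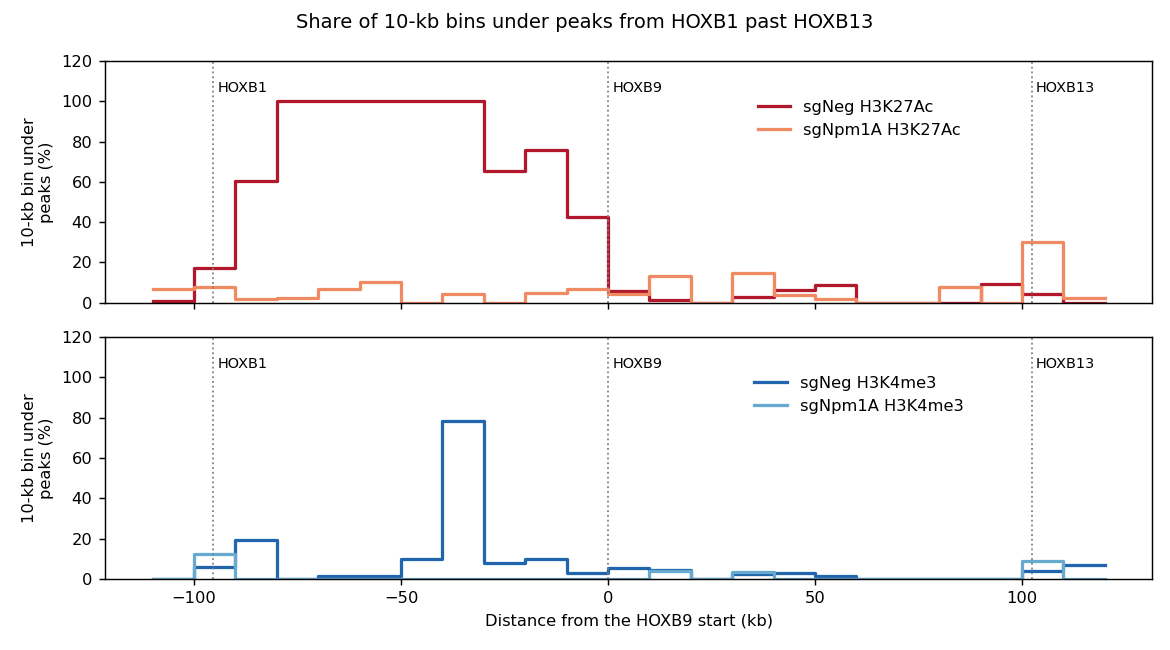
Percent of each 10-kb bin under peaks (y axis) against distance from the HOXB9 start (x axis, kb), 1 line per library, with dotted lines at the starts of HOXB1, HOXB9 and HOXB13. The sgNeg H3K27Ac line is at 100% from -80 to -30 kb and falls from 42.5% to 5.96% at the HOXB9 start, and the sgNpm1A line reaches 30.3% in the bin at HOXB13.

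The other genes of the locus give the frame for these values. Of 9 protein-coding neighbours, 7 had an H3K27Ac peak in sgNeg and 5 in sgNpm1A, with 6 lower and 1 higher, and 7 and 2 had an H3K4me3 peak. CBX1, which encodes a heterochromatin protein, and UBE2Z, which encodes a ubiquitin-conjugating enzyme, had H3K27Ac peaks at the 98.4 and 99.2 percentiles in sgNeg and none in sgNpm1A, as HOXB2 did. Of the noncoding genes of the cluster with an annotation, 4 of 5 had an H3K27Ac peak in sgNeg and 3 in sgNpm1A, and 5 of 6 and 0 had an H3K4me3 peak. Peaks of high rank in sgNeg and none in sgNpm1A were thus also found at genes on either side of the cluster that are no HOX genes. Neither CBX1 nor UBE2Z borders the cluster, which runs from 46605888 to 46806112 (GRCh37). The CBX1 window ends at 46179840 and the UBE2Z window begins at 46984769.

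Across the genome, the genes whose 4 percentiles came closest to the median of HOXB2 to HOXB9 (99.3, 5.08, 92.0 and 0 in the order sgNeg and sgNpm1A H3K27Ac, then sgNeg and sgNpm1A H3K4me3) were ACADM, BCAP31, GYG2, ZNF485 and LIPT2. Their distances, as root of the summed squared differences over the 4 lists, were 2.24 to 2.80 percentile points among 19062 genes outside the HOX clusters. Each of these genes had the 3.21 percentile for sgNpm1A H3K27Ac, shared by all peaks of the lowest fold in that list (2.66). The median of 5.08 there was held by no HOXB gene, as it lies between 0 (no peak) and the 10.2 of HOXB4. The 9 HOX cofactors of the MEIS, PBX and PKNOX families had H3K27Ac peaks in both lists at 9 of 9, with 5 lower and 4 higher in sgNpm1A, and 9 and 7 had an H3K4me3 peak. MEIS1 had a top H3K27Ac peak of 19181 bp at the 99.4 percentile in sgNeg and one of 203 bp at the 95.7 percentile in sgNpm1A. Among the other clusters, the H3K27Ac percentile was lower in sgNpm1A at 8 of 11 HOXA genes, 2 of 9 HOXC genes and 3 of 9 HOXD genes, beside 9 of 10 HOXB genes and 61.6% of all genes. A gene without an sgNeg peak could not be lower. The percentile was higher in sgNpm1A at 3 of 11 HOXA, 7 of 9 HOXC, 3 of 9 HOXD and 1 of 10 HOXB genes. At HOXC, 4 genes had an H3K27Ac peak in sgNpm1A only. An sgNeg H3K27Ac peak was present at 9 of 11 HOXA, 5 of 9 HOXC, 6 of 9 HOXD and 10 of 10 HOXB genes.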

How the data were processed

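Chromatin of OCI-AML3 cells was profiled by ChIPmentation in 4 precipitated libraries. The submitters' processing notes name bcl2fastq 2.17, Trimmomatic 0.33, Bowtie 1.1.2, MACS2 2.1.0 and deepTools. The notes and the study's methods name hg38 alone, but H3K27Ac peaks end past the hg38 length of chromosome 1 (at 249218478), so these lists were read on GRCh37, and H3K4me3 peaks end past the hg19 length of chromosome 17 (at 83201880), so these were read on GRCh38. No coordinates were converted. Peaks were listed per library. The calling limit, the use of input and any shift of Tn5 cut positions are not given in the sources used here. Fold enrichment as deposited by the authors is the ratio of observed to expected pileup, averaged over the region for H3K27Ac (broad peaks) and at the summit for H3K4me3 (narrow peaks). The −log10 p-value and its −log10 q-value counterpart, also deposited, refer to that region or summit. For H3K4me3, 1 constant background per list gave whole fragment numbers for 100% of peaks within 0.02, and these numbers are the only depth known.

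Genes came from GENCODE version 44 mapped to GRCh37 (H3K27Ac) and RefSeq on GRCh38 (H3K4me3). Each peak received the percentile 100 × (1 − (rank − 0.5) / n) among the n peaks of its list, by fold enrichment with rank 1 the highest and ties sharing their mean rank, and a gene the percentile of its highest peak. Python 3.11.15, pandas 2.3.3, numpy 2.4.6, scipy 1.17.1 and matplotlib 3.10.9 were used, and scripts were tested on simulated data. Named genes were all 10 members, neighbours, noncoding genes, cofactors, other HOX clusters as counts, NPM1 and the 5 most similar genes. The members and lists were chosen with earlier results of these data known. Alternatives were q-value limits, an equal number of peaks per list, other gene windows, ranking by width or p-value, and other rules for the domain end. The MANE Select window was chosen after seeing the data.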

Additional observations from a re-analysis of the deposited data

Results flagged for a closer look

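At HOXB1 and HOXB13 the marks differed in opposite directions between the guides, each in its only library per group, and this difference was not tested. At HOXB1 the percentile in sgNpm1A minus that in sgNeg was 22.8 for H3K27Ac and -36.1 for H3K4me3. By the share of the window under peaks the directions were the other way round, from 49.9% to 13.5% for H3K27Ac and from 12.7% to 27.1% for H3K4me3. At HOXB13 the difference in percentile was -21.5 for H3K27Ac and 43.9 for H3K4me3, while the covered share was higher in sgNpm1A for both marks, from 9.10% to 33.2% and from 0% to 6.68%. These are the outermost genes of the cluster, and all their peaks had folds of 2.66 to 3.95. Over the whole lists the median H3K4me3 peak width was 407 bp in sgNpm1A and 192 bp in sgNeg, and for H3K27Ac 415 bp and 358 bp. The part of these list-wide widths in the covered shares was not tested.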

How the results depend on the processing

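Each group has 1 library, and depth is known only as the fragments at H3K4me3 summits, so no value has an error between replicates. No paired analysis was possible because each group has 1 library. For the sgNpm1A H3K27Ac list the number of HOXB genes with a peak (6) became 2 at a q-value under 0.01, 0 under 1e-05, 1 with the 100000 lowest p-values, 2 within 1 kb of the start and 10 within 5 kb. The median percentile there (14.2) became 0 under these first 4, 51.7 within 5 kb, 8.70 over MANE Select transcripts and 53.8 ranked by width. The covered share from HOXB1 to HOXB9 (4.64%) became 1.07% at a q-value under 0.01, 0% under 1e-05 and 0.348% with 100000 peaks. For H3K4me3, a q-value under 1e-05 left 0 sgNpm1A genes with a peak and 0% cover, and put the sgNeg median percentile (84.4) at 32.2, and 100000 peaks put it at 44.9. The numbers of genes lower in sgNpm1A (9 and 8) stayed within 1.5 times under every alternative run. The end of the sgNeg H3K27Ac domain (5004 bp past the HOXB9 start) moved to 14084 bp with longer breaks allowed, and to -7 bp, inside HOXB9, with breaks of up to 1 kb or with the top 10% of peaks by fold. With the top 1% by width, and in the other 3 lists, it could not be computed, as no peak lay on HOXB9. Of 180 differences of single genes under alternatives, 142 stayed within 1.5 times, 32 moved and 6 reversed: HOXB1 to -38.6 for H3K27Ac and 15.2 for H3K4me3 by width and 10.9 for H3K4me3 with 100000 peaks, and HOXB13 H3K27Ac to 55.4 within 1 kb of the start, 4.74 within 5 kb and 34.9 by width. Except where the alternative itself removes peaks or changes the window, the cause was not tested.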
